A study of Mus musculus with 2 samples.

Results

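The endoplasmic reticulum (ER) is where liver cells fold the proteins they secrete, and 34 genes of its folding machinery and of the unfolded protein response are described here in mouse liver. They were chosen by name and found by matching the gene identifiers of the count tables to GENCODE M21 symbols, which gave all 34 of them among 55421 listed genes. By role they comprise 11 chaperones and cochaperones, 5 disulfide isomerases and their relatives, 8 genes of ER-associated degradation, 6 of translocation and export, and 4 sensors and their effector.

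RNA of liver was sequenced in 1 library from WT mice, which carry floxed Rcrin alleles that leave the gene in place, and 1 library from mice with a conditional knockout of Rcrin. Both are labelled as liver cells, with a time of 8 weeks. Neither the Cre driver and its target cells nor the number of mice per library is given in the sources used here. With a single library on each side the spread between mice is unknown, so differences are described without a test and hold for these 2 libraries. Intervals cover counting error only.

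A secretory cell threads new proteins into the ER through a membrane channel, folds them there with chaperones and disulfide isomerases, ships the folded ones in coated vesicles and sends the misfolded ones back to the cytosol for degradation. When unfolded protein accumulates, the sensors IRE1 (gene Ern1), ATF6 and PERK (gene Eif2ak3) set off the unfolded protein response, in which the transcription factors ATF6 and spliced XBP1 switch on chaperone and degradation genes. Hepatocytes, which make most plasma proteins, carry a large ER and use this response in fasting and feeding and in inflammation.

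The promoters of many of these genes hold the ER stress response element (ERSE), which ATF6 binds together with the factor NF-Y. Its letters are CCAAT, then 9 free bases, then CCACG, and a shorter form, ERSE-II, reads ATTGG, 1 free base and CCACG. Both were searched on both strands of the RefSeq promoter windows of GRCm38.p6, each running from 250 bases before to 50 bases after a gene's start. The window table held 29 of the 34 genes. Of these, 9 had an ERSE (31.0%) and 2 an ERSE-II (6.90%), against 0.137% and 0.0444% of the 27025 genes in the table. The 34 genes were chosen by name for their part in folding and in this response, so the higher shares are no independent finding. The matches are shown with 8 bases on either side because the genes that hold them are compared with the others below. They are written 5′ to 3′ on the strand of the gene, with the fixed letters of the element in capitals, and a match on the opposite strand reads CGTGG before ATTGG.
Hspa5: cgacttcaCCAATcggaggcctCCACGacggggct
Hsp90b1, farther from the start: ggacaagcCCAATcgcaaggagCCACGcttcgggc
Hsp90b1, nearer to the start: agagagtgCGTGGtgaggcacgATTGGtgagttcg
Calr: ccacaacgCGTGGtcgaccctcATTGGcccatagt
Canx: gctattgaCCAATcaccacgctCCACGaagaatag
Dnajc3: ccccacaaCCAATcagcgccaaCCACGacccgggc
Creld2: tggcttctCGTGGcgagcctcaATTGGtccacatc
Pdia6: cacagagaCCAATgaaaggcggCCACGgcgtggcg
Syvn1: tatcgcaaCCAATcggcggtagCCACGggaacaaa
Derl3: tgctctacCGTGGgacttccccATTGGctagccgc
Dnajb11, ERSE-II: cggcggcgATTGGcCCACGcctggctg
Herpud1, ERSE-II: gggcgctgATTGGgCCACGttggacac
The ERSE of Hspa5 lay 65 to 47 bases before the start, that of Syvn1 44 to 26 and that of Calr 162 to 144, while the ERSE-II of Dnajb11 lay just inside the transcript, from base 8 to base 18. These positions count from the RefSeq start of each window. For Hspa5 that start lies downstream of the GENCODE gene start given below, so its ERSE falls within the gene as GENCODE places it. A further element, the unfolded protein response element with the letters TGACGTGG, stood in the window of 1 of the 29 genes, Sec24d, and in 0.714% of all genes in the table. Its match reads cgggcgccTGACGTGGcactagca, with the element in capitals. None of these elements overlapped another in these windows.

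Library totals were 65121596 counts for WT and 63587567 for the knockout. The defining hepatocyte markers were present in both, with albumin (Alb) at 3350104 counts in WT and 5599153 in the knockout. All 34 genes passed the limit of a mean of 50 counts, 33 had a mean of at least 500 counts, and the least abundant, Derl3, had 574 and 187 counts. Values in CPM, the count of a gene relative to the size of its library, are scaled with the TMM method, which adjusts library totals for composition. A ratio is the log2 of the knockout level over the WT level, so that -1 is 2-fold lower in the knockout library.

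The ER chaperone genes all stood lower in the knockout library, while most translocation genes and sensors stood near or above their WT levels. Of the 34 genes, 24 had a ratio below 0, or 70.6%, where 50.8% of the 12064 genes that passed the same limit lay below 0. By the limit of 2-fold, 8 stood lower (23.5%) and 1 higher (2.94%), where 8.61% of all genes compared stood lower and 8.45% higher. Among the genes whose mean reached 500 counts those shares were 6.44% and 6.26%. The median ratio of the 34 genes was -0.25, beside -0.01 over all genes compared. Their share of all counts was 1.03% in WT and 0.733% in the knockout, and their summed level was 10124 CPM in WT and 7463 CPM in the knockout, 1.36-fold lower. Counting error is small beside these differences: the intervals of 23 genes lay wholly below 0, those of 9 wholly above, and those of Ern1 and Atf6 held 0.

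**Figure D1:**
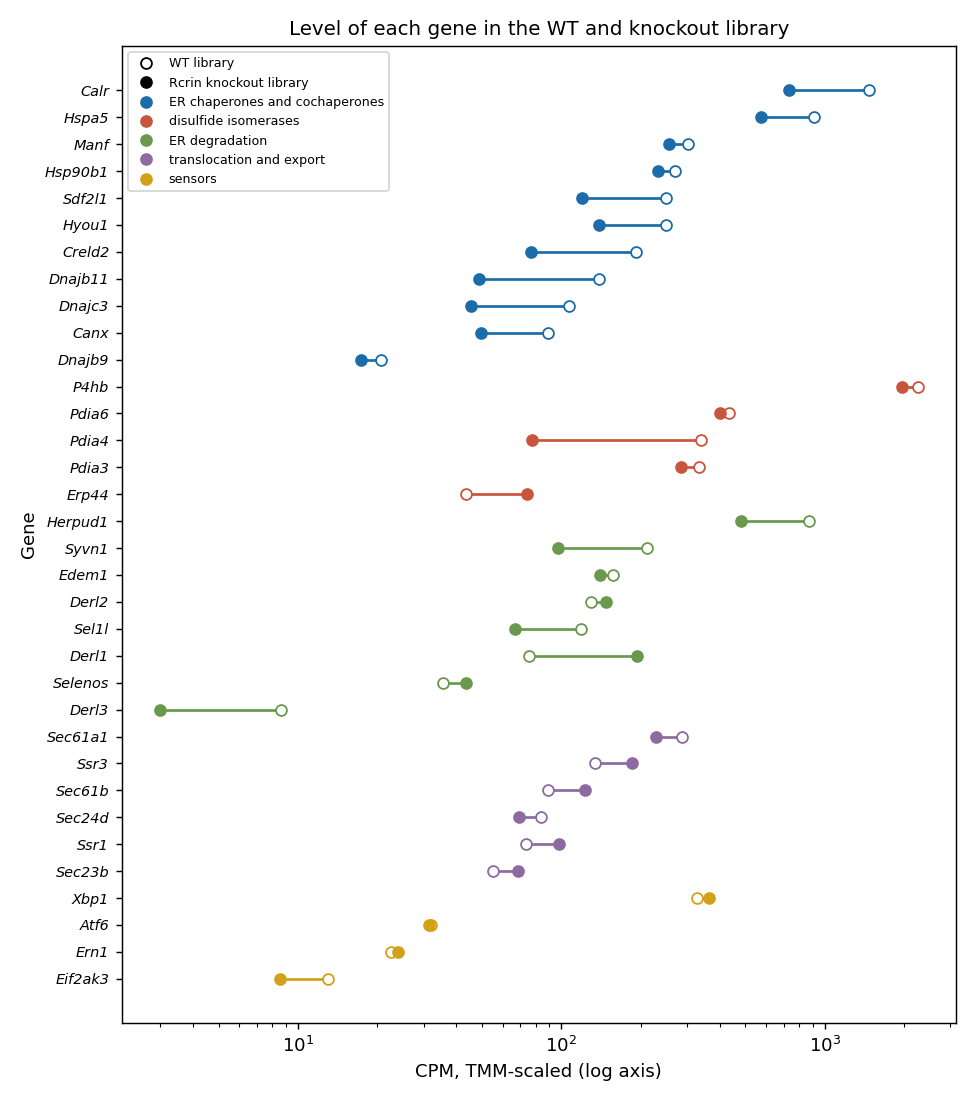
Level of each of the 34 genes in CPM (TMM-scaled, log axis) in the WT library (open circles) and the Rcrin knockout library (filled circles), coloured by role. Filled circles lie left of open ones for all 11 chaperone genes, and right of them for Derl1, which stood at 75.1 and 194 CPM.

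Chaperones and cochaperones all stood lower in the knockout library. Their summed level was 3997 CPM in WT and 2288 CPM in the knockout, 1.75-fold lower, with a median ratio of -0.84. Of the 11 genes, 5 were past 2-fold (45.5%), where 8.61% of all genes compared stood lower past 2-fold. Hspa5 encodes BiP, the Hsp70 chaperone of the ER lumen that also holds the sensors inactive (ENSMUSG00000026864, GRCm38 chromosome 2 from 34771970 to 34777547). It had 60204 counts in WT and 35804 in the knockout, a ratio of -0.66 (interval -0.68 to -0.65), or 63.1% of the WT level. Its promoter window, shown because BiP is the standard readout of the response, lies on the plus strand at chr2:34771840-34772139 and holds 1 ERSE, in capitals.
Hspa5 promoter: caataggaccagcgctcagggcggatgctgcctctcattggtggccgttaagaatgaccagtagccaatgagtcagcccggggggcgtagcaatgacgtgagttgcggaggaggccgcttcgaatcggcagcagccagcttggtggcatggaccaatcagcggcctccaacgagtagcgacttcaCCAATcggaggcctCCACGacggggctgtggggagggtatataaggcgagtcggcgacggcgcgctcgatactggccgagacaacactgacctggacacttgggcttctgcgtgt

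The helpers of BiP stood lower as well, and they did so unevenly. Of the 5, Dnajb11, Dnajc3, Sdf2l1 and Hyou1 had lower ratios than BiP. Once the trend of all genes with GC content was removed, only Dnajb11 (-1.51) and Dnajc3 (-1.59) were still below BiP, which then stood at -0.85, while Hyou1 was at -0.67 and Dnajb9 at -0.51. Dnajb11, a J-domain protein that hands unfolded clients to BiP, had 9230 and 3043 counts, 2.86-fold lower with a ratio of -1.52 (interval -1.58 to -1.46). Dnajc3, also a J-domain partner, had 7118 and 2832 counts, 2.37-fold lower. Sdf2l1, which binds Dnajb11 in the lumen, had 16616 and 7487 counts and a ratio of -1.06, or -0.82 with the GC trend removed. Another J-domain gene, Dnajb9, whose protein returns misfolded clients for degradation and restrains IRE1, stood much closer to its WT level. It had 1371 and 1082 counts and a ratio of -0.26 (interval -0.37 to -0.14). Hyou1, the large Hsp70-like exchange factor that reloads BiP, had 16532 and 8708 counts, 1.79-fold lower. Sdf2l1 and Dnajb9 have 3 exons each, and genes with few exons more often lay past 2-fold in these libraries. Of the 645 genes compared that have 3 exons and counts in both libraries, 13.3% stood lower and 14.6% higher by 2-fold. Of the 10549 with 4 or more exons and counts in both, 7.27% stood lower and 7.21% higher. The part of exon number in either ratio was not tested.

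Creld2, an ER protein with EGF-like repeats that is a known target of the response, had 12694 and 4778 counts, 2.50-fold lower (ratio -1.32, interval -1.37 to -1.28). Manf, a secreted survival factor that is induced beside it and binds BiP, had 20071 and 15973 counts and a ratio of -0.24. Manf overlaps Dcaf1 on the opposite strand, which had 403 and 233 counts. Creld2 and Manf thus lay far apart, although both are markers of the same response. Hsp90b1, the Hsp90 of the ER, had 17885 and 14545 counts, or 86.3% of the WT level (ratio -0.21). With the GC trend removed its ratio was -0.57, and Manf was then nearest to 0 of the chaperone group, at -0.25. The 5 genes past 2-fold were Dnajb11, Creld2, Dnajc3, Sdf2l1 and Calr.

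The lectin chaperones, which hold newly made glycoproteins by their sugar chains until they fold, both stood lower. Calreticulin (Calr), the soluble form, had 97325 counts in WT and 45587 in the knockout. Its ratio of -1.01 (interval -1.02 to -0.99) lay on the limit of 2-fold, and the interval crossed it. Calnexin (Canx), its membrane-bound counterpart, had 5888 and 3090 counts and a ratio of -0.84 (interval -0.91 to -0.78). Per kilobase of the longest coding transcript, Calr was the second most abundant of the 34 genes in the WT library, at 672 CPM per kilobase, behind P4hb at 787 and ahead of Herpud1 at 446. In the knockout library Calr stood at 334 CPM per kilobase and P4hb at 687.

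Promoter windows of 2 of the lowest cochaperones are shown whole. That of Dnajb11 lies on the plus strand at chr16:22857595-22857894 and that of Creld2 on the plus strand at chr15:88819396-88819695, with the fixed letters of their elements in capitals.
Dnajb11 promoter: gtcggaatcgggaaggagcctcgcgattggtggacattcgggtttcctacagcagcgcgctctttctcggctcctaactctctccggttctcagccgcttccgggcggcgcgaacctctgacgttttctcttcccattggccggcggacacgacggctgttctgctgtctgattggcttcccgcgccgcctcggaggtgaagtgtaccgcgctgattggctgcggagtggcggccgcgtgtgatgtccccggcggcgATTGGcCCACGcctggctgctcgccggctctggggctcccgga
Creld2 promoter: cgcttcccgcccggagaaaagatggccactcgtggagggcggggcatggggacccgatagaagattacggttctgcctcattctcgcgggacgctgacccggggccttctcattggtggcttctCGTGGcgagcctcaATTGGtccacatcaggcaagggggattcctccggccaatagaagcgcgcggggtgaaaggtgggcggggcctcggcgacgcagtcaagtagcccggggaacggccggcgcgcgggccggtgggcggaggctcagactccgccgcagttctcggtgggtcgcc

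**Figure D2:**
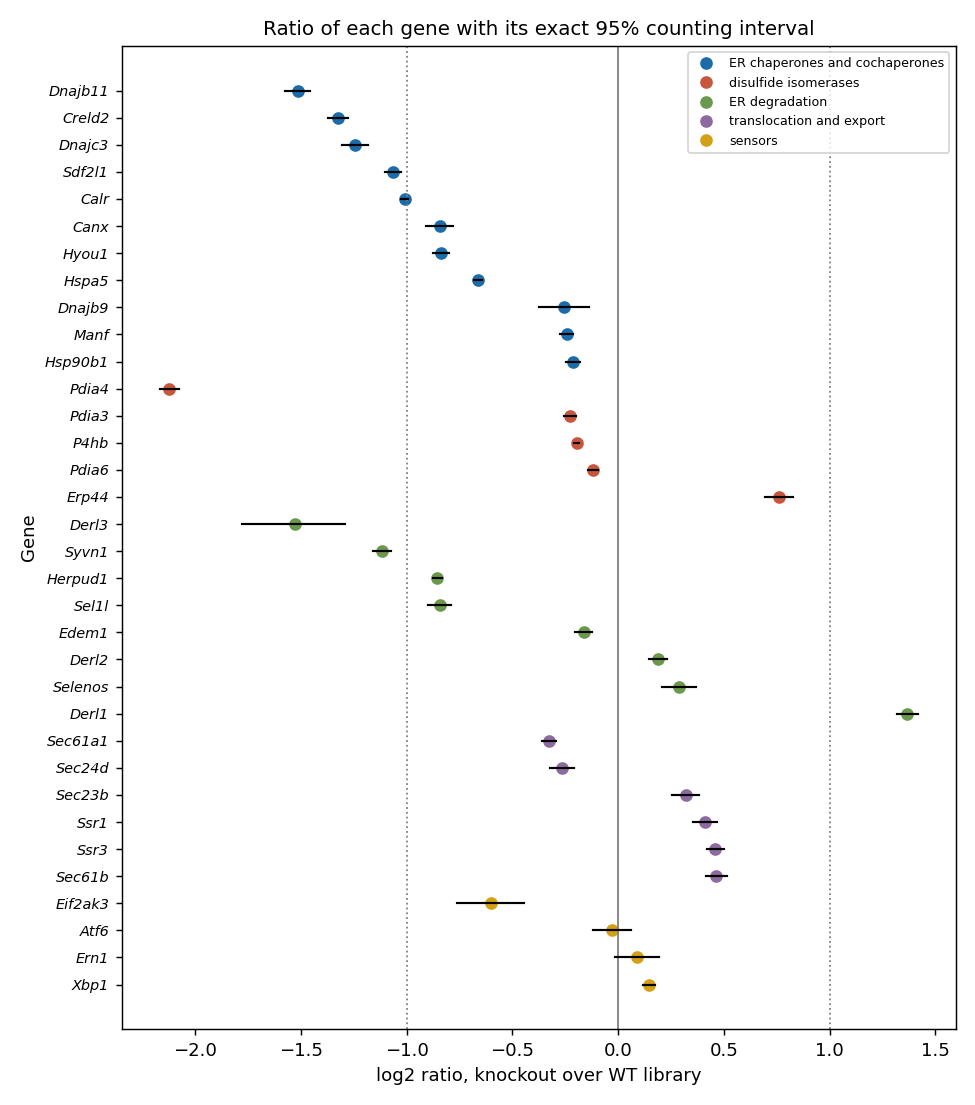
Log2 ratio of the knockout over the WT library for each of the 34 genes, ordered within roles, with exact 95% counting intervals as black lines and dotted lines at 2-fold. Pdia4 is lowest at -2.12, Derl1 highest at 1.37, and the 6 translocation and export genes lie between -0.33 and 0.46.

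The disulfide isomerases, which form and rearrange the disulfide bonds of secreted proteins, held the lowest ratio of all, while the 3 sister isomerases stood close to their WT levels. Pdia4, an isomerase with extra thioredoxin-like domains, had 22413 counts in WT and 4852 in the knockout (ENSMUSG00000025823, chromosome 6 from 47796141 to 47813430). It was 4.35-fold lower, with a ratio of -2.12 (interval -2.17 to -2.08), and no other of the 34 genes was past 4-fold. The sisters stood between 1.09-fold and 1.17-fold lower. P4hb, the founding protein disulfide isomerase and a subunit of collagen prolyl hydroxylase, had 149295 and 122803 counts (ratio -0.20). Pdia3, which works with calreticulin and calnexin on glycoproteins, had 22028 and 17721 counts (ratio -0.23), and Pdia6 had 28826 and 25011 (ratio -0.12). With P4hb as the most abundant member, the summed level of the group was 1.21-fold lower, at 3401 CPM in WT and 2801 CPM in the knockout. Erp44, which retrieves oxidases and unassembled proteins from the early secretory pathway, was the exception, at 2895 and 4623 counts with a ratio of 0.76 (interval 0.69 to 0.83). With the GC trend removed its ratio was 0.31.

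The promoter window of Pdia4 is shown because its ratio was the lowest. It lies on the minus strand at chr6:47813463-47813762 and is written in lower case, since it held none of the 3 elements. With 1 mismatch allowed in the CCACG end of the ERSE it held 1 match, as did windows of Pdia3, Erp44, Derl2 and Sel1l. These 5 genes ranged from -2.12 to 0.76. The looser element stood in 15 of the 29 windows' genes and in 1.14% of all genes in the table.
Pdia4 promoter: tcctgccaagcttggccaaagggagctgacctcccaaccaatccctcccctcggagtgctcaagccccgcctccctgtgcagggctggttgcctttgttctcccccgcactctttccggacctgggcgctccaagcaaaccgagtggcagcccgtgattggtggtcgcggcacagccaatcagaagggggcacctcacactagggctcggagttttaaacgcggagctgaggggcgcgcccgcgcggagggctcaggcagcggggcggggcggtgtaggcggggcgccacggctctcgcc

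Genes of ER-associated degradation were split, with 5 below 0 and 3 above. The core of the ubiquitin ligase complex stood lower. Syvn1, the membrane ligase HRD1, had 13982 and 6083 counts, 2.17-fold lower (ratio -1.12, interval -1.16 to -1.07), and within 2-fold at -0.87 with the GC trend removed. Its partner Sel1l, which delivers substrates to it, had 7911 and 4158 counts (ratio -0.84), and Herpud1, a short-lived scaffold of the same complex, had 57670 and 30055 (ratio -0.85). Reads of Syvn1 could in part come from Mrpl49, which overlaps it on the opposite strand and had 2225 and 2116 counts, since the use of strand in counting was not given. Edem1, a lectin that picks misfolded glycoproteins for disposal and is a known target of XBP1, had 10439 and 8786 counts (ratio -0.16).

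The derlins, membrane proteins of the exit route to the cytosol, differed in direction. Derl1 stood highest of the 34 genes, with 4979 counts in WT and 12115 in the knockout (chromosome 15 from 57869502 to 57892448). That is 2.58-fold higher, a ratio of 1.37 (interval 1.32 to 1.42). Derl2 had 8608 and 9246 counts (ratio 0.19), and Derl3 had 574 and 187 counts, 2.89-fold lower (ratio -1.53, interval -1.78 to -1.29). Selenos, a selenoprotein that ties derlins to the extracting ATPase, had 2359 and 2712 counts (ratio 0.29). Derl2 overlaps Mis12 on the opposite strand, which had 524 and 725 counts, so its reads are uncertain to that extent.

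Derl3 is prominent in plasma cells, and markers of those cells went both ways, with more of them lower than higher in the knockout library. Of 9 plasma cell markers that are not among the 34 genes, none was at 0 in either library, and 7 could be compared. Of these, 4 lay below 0 and 3 above, with 3 lower past 2-fold and 1 higher. The summed level of the 9 was 112 CPM in WT and 62.7 CPM in the knockout, a fall carried by 2 abundant genes. Jchain, the joining chain of secreted IgA and IgM, had 2311 and 473 counts (ratio -2.20) and Igha 4175 and 949 (ratio -2.05). Without these 2 the sum was 14.1 CPM in WT and 39.9 CPM in the knockout. That rise was no larger than the rise of Igkc alone, from 0.377 to 26.7 CPM. Igkc has 1 exon and had 25 and 1666 counts (ratio 6.11). Ighm had 430 and 548 counts (ratio 0.43) and Cd79a 88 and 140 (ratio 0.75). Mzb1, with 233 and 77 counts (ratio -1.51), and Pou2af1, with 79 and 37, stood lower, as Derl3 did. Tnfrsf17 (36 and 10 counts) and Irf4 (42 and 16) were too rare to be compared, and their counts were lower in the knockout library as well. The part of plasma cells in the Derl3 value was not tested, and in bulk liver fewer cells of a type and less RNA per cell cannot be told apart. Pancreatic acinar cells also express Derl3 and much of the folding machinery. Of 12 pancreas markers 10 were at 0 in both libraries, among them Cpa1, Pnlip and Prss2. The remaining 2 went opposite ways, Cela2a with 194 and 89 counts (ratio -1.03) and Cela1 with 1166 and 2242 (ratio 1.03).

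Translocation and export genes stood slightly higher on balance, with a median ratio of 0.37, 4 of 6 above 0 and 0 past 2-fold. Their summed level was 723 CPM in WT and 773 CPM in the knockout. Subunits of the same machine went opposite ways. Sec61a1, the pore-forming subunit of the channel, had 19040 and 14312 counts (ratio -0.33, interval -0.36 to -0.29), while Sec61b, a small subunit of that channel, had 5909 and 7685 (ratio 0.46, interval 0.41 to 0.51). The translocon-associated proteins Ssr1, with 4868 and 6099 counts (ratio 0.41), and Ssr3, with 8934 and 11575 (ratio 0.46), moved with Sec61b. The vesicle coat was split as well. Sec23b, of the inner COPII coat, had 3652 and 4296 counts (ratio 0.32), and Sec24d, its cargo-binding partner, had 5529 and 4333 (ratio -0.27).

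The sensors stood near their WT levels except for PERK. Ern1 had 1501 and 1505 counts, a ratio of 0.09 with an interval of -0.01 to 0.19, and Atf6 had 2118 and 1958 counts, a ratio of -0.03 with an interval of -0.12 to 0.06. With the GC trend removed Atf6 stood lower, at -0.34, and the median of the sensor group went from 0.03 to -0.08. Xbp1, the transcription factor whose mRNA IRE1 splices, had 21731 and 22668 counts and a ratio of 0.15 (interval 0.12 to 0.17). Counts per gene do not separate the spliced from the unspliced Xbp1 mRNA, and they do not show the cleavage of ATF6 or the phosphorylation of PERK, so the activity of the 3 branches was not measured. Eif2ak3 (PERK), which slows translation through eIF2 alpha, was the rarest of the group with 860 and 534 counts and had a ratio of -0.60 (interval -0.76 to -0.44).

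**Figure D3:**
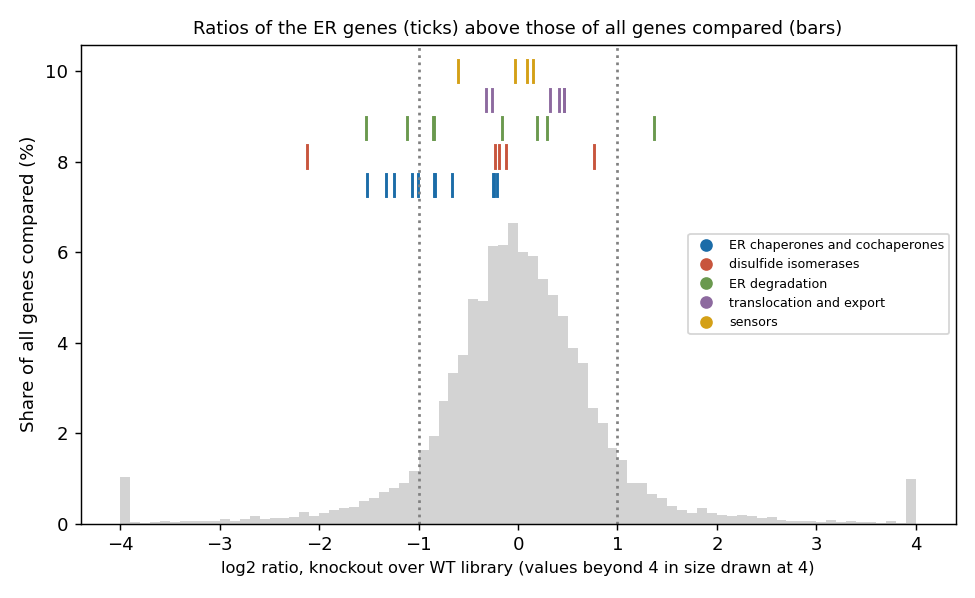
Share of the 12064 genes compared (grey bars, percent) by log2 ratio of the knockout over the WT library, with each of the 34 ER genes as a tick above, in 1 row per role. The chaperone ticks all lie below 0, from -1.52 to -0.21, while the bars centre on -0.01.

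Genes with an ERSE or ERSE-II in their promoter window stood lower than the other ER genes, but the 2 sets also differ in role. The search was made after the values were known. All 11 genes with an ERSE or ERSE-II had a ratio below 0, from -1.53 (Derl3) to -0.12 (Pdia6). Of these, 6 were past 2-fold (54.5%), and the median was -1.01. Of the 18 genes whose windows held neither, 9 lay below 0 and 9 above. Among these 18, 2 stood lower past 2-fold (Pdia4 and Sdf2l1, 11.1%), and the median was -0.04. Of the 9249 other genes compared whose windows held neither, 51.2% lay below 0 and 7.80% stood lower past 2-fold. The 5 genes that the window table did not hold were Hyou1, Atf6, Sec61a1, Manf and Derl1. Most genes with a match were chaperones, a role whose genes all stood lower. No sensor and no translocation or export gene in the table had a match. The chaperones whose windows held neither, Dnajb9 and Sdf2l1, also lay below 0. Among degradation genes, Derl3, Syvn1 and Herpud1 had a match and stood at -1.53, -1.12 and -0.85. Sel1l, Edem1, Derl2 and Selenos had none and stood at -0.84, -0.16, 0.19 and 0.29. Among disulfide isomerases, Pdia6 had a match and stood at -0.12, while those without ranged from -2.12 (Pdia4) to 0.76 (Erp44). The parts of element and role in the ratios were not tested. Other genes with the same letters were split. Outside the 34 genes, 15 genes compared had an ERSE or ERSE-II, and 8 of them lay below 0 and 7 above. Their median was -0.01, with 1 lower and 1 higher past 2-fold. The 1 higher was Xlr3b, with 0 counts in WT and 143 in the knockout. Of the 14 with counts in both libraries, 1 stood lower and 0 higher past 2-fold. Nucb1, a calcium-binding protein gene (ratio -0.63), and Alg12, a mannosyltransferase gene of the ER (ratio -0.77), were among those below 0, and Krtcap2, a subunit of the oligosaccharyltransferase, stood at 0.10. These 3 genes and Xlr3b were named after their values were seen.

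**Figure D4:**
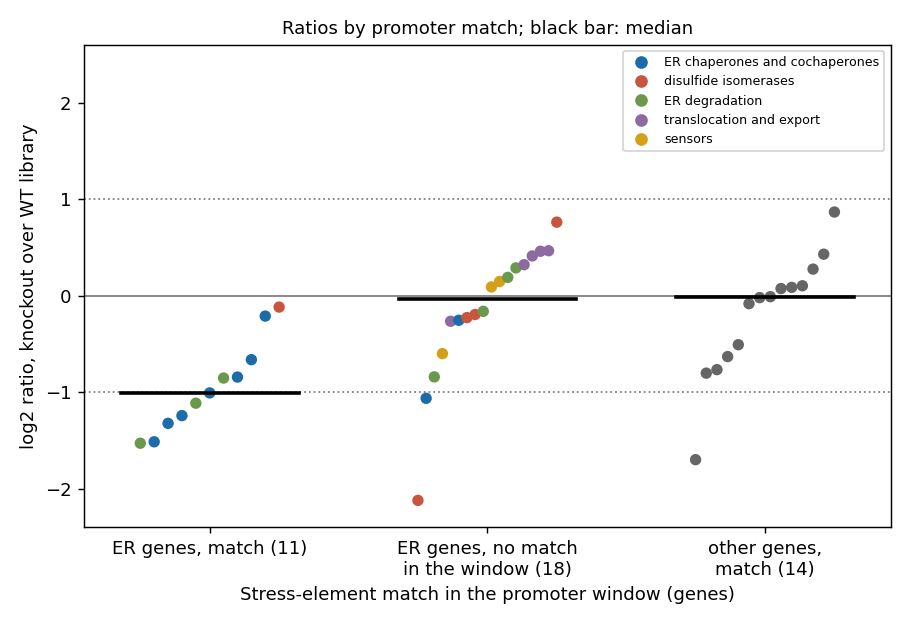
Log2 ratio of the knockout over the WT library for ER genes with an ERSE or ERSE-II in the promoter window, ER genes whose window holds neither, and other genes with either element and counts in both libraries, with medians as black bars. All 11 points of the first set lie below 0, and the 14 points of the last spread around a median of -0.02.

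The rest of the ER pathway was evenly split in direction, and whether it differed from the 34 genes was not tested. Lists written from textbook knowledge held 152 further genes, of which 149 could be compared: 75 lay below 0 and 74 above, 9 stood lower past 2-fold (6.04%) and 7 higher (4.70%), with a median of -0.004. Their summed level was 13503 CPM in WT and 12308 CPM in the knockout. Of all genes compared, 8.61% stood lower past 2-fold and 8.45% higher. The 31 other folding genes had a median of 0.18 but a lower sum in the knockout library, 3079 CPM in WT and 2522 CPM in the knockout. Of these 31, 3 stood lower (9.68%) and 1 higher (3.23%) past 2-fold. Those lower were the membrane thioredoxin Tmx1 (1962 and 550 counts, ratio -1.75), the prolyl isomerase Fkbp9 (-1.60) and the sulfhydryl oxidase Qsox1 (80956 and 37846 counts, -1.01). Dnajc1, a membrane J-domain protein, stood higher (1.40). Genes of glycan addition and the lectin cycle had a median of -0.13 over 21 genes. Only Mogs among them, the glucosidase that trims the first sugar, was past 2-fold, with 4225 and 743 counts (ratio -2.42).

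Other degradation genes had a median of 0.02 over 23 genes. Fam8a1, a cofactor of HRD1, stood lower like Syvn1, with 1397 and 316 counts (ratio -2.06). Svip, a small inhibitor of ER-associated degradation, stood higher with 58 and 550 counts (3.32). The median of the 21 other translocation genes was 0.22, with 15 above 0, between the receptor subunit Srprb (-1.31) and the signal recognition particle subunit Srp72 (1.77). Among 22 other genes of COPII transport and retrieval 0 were past 2-fold in either direction, and the median was -0.13.

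Other sensors and genes downstream of PERK had a median of -0.02 over 20 genes, with 1 lower and 2 higher past 2-fold. Creb3l1, an ER-bound transcription factor related to ATF6, had 280 and 60 counts (ratio -2.13). Eif2s1, the eIF2 alpha subunit that PERK phosphorylates, had 978 and 2242 counts (1.28), and the stress transcription factor Atf3 had 190 and 372 (1.05). Atf4, the transcription factor translated when PERK is active, had 10120 and 14092 counts (ratio 0.56), and Trib3, a gene that ATF4 switches on, had 265 and 249 (-0.0044). Further genes of this list went both ways, with Ddit3 at -0.40, Chac1 at -0.19 and Ppp1r15a at 0.43. Atf4, Trib3 and these further genes were named after their values were seen. Genes that shape the ER membrane, which carry no folding role, had a median of -0.13 over 11 genes, with Atl2 (-1.20) lower past 2-fold and Rtn3 (1.46) and Arl6ip1 (2.05) higher.

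Chaperones of the cytosol stood lower too, so the difference was not shown to be particular to the ER. Of 21 cytosolic chaperone genes 17 lay below 0, 4 stood lower past 2-fold (19.0%) and 0 higher, with a median of -0.45. Over all genes compared, 50.8% lay below 0, 8.61% stood lower past 2-fold and 8.45% higher. The steroid receptor cochaperone Fkbp5 had 4020 and 711 counts (ratio -2.41), Hspb1, a small heat shock protein gene with 3 exons, stood at -1.87, and Hsp90aa1, the inducible cytosolic Hsp90, had 6303 and 1913 counts (-1.63).

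**Figure D5:**
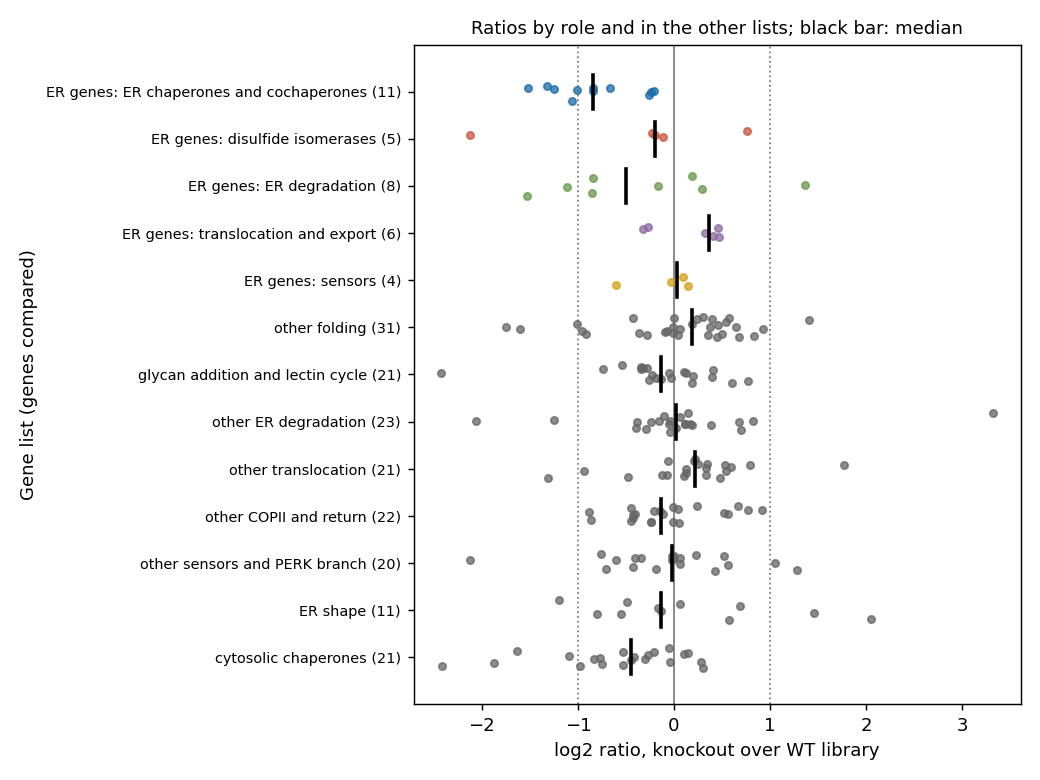
Log2 ratio of the knockout over the WT library for each gene (points) of the 5 roles and of 8 other lists, with medians as black bars, dotted lines at 2-fold and the number of genes compared in brackets. The ER chaperones (median -0.84) and the cytosolic chaperones (-0.45) lie left of 0, the translocation genes (0.37) right of it, and the other ER lists have medians between -0.13 and 0.22.

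Cell type markers also differed between the libraries. The 12 hepatocyte markers summed to 126224 CPM in WT and 160067 CPM in the knockout, with 9 of 12 above 0 and 3 below. Alb made up the largest part of this sum, at 50542.5 CPM in WT and 89624.5 CPM in the knockout. Trf, the next most abundant in WT, went the other way, from 33395 to 17478 CPM. The rise of the sum is thus not a rise shared by all hepatocyte markers. Macrophage markers summed to 1990 and 1419 CPM (10 of 12 below 0), neutrophil markers to 64.4 and 24.1 CPM (8 of 8 compared below 0) and erythroid markers to 3087 and 784 CPM (5 of 6 compared below 0). Stellate cell markers summed to 178 and 159 CPM (7 of 10 below 0), endothelial markers to 476 and 421 CPM (6 of 10 below 0) and cholangiocyte markers to 31.1 and 38.7 CPM (3 of 6 compared below 0). Their part in the ER values was not tested.

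Base composition moved with the ratios as well. Across all genes compared the ratio was lower at higher GC content of the transcripts (Spearman rho -0.33), and across the 34 ER genes rho was -0.36. These are descriptions across genes, which share their libraries. With the GC trend of all genes removed, 7 of the 34 stood lower and 1 higher past 2-fold. Sdf2l1 and Syvn1 then came within 2-fold and Canx (-1.22) passed it, Ssr3 came to 0.0023, and Derl2 crossed 0, to -0.0064. All 11 chaperone genes stayed below 0 under that correction, with a median of -0.85, and the median of the translocation and export genes was 0.14. The part of base composition in the single values was not tested.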

How the data were processed

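Liver RNA was extracted with Trizol and made into libraries with a SMARTER kit, per the labels' protocols. The authors deposited raw read counts, 1 whole number for each Ensembl gene, as the file headers and values show. They lie on the build GRCm38 (mm10) per the submitters' processing notes. For the aligner, counter, annotation release, strand setting and handling of multiply mapped reads, the software and settings are not given in the sources used here. Groups follow the genotype label.

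GENCODE M21 (GRCm38) supplied gene names, positions, exon numbers, GC content and lengths, and named 55240 of 55421 genes. The unnamed genes held 0.00541% of WT and 0.00956% of knockout counts. Lengths for levels per kilobase are those of the longest coding transcript. Promoter sequences are RefSeq windows. In 27 of 32 member windows the last 25 bases stood in a transcript of the gene, and for the reverse complement in 0.

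Library totals were scaled with TMM factors of 1.02 (WT) and 0.982 (knockout) from edgeR 4.0.16 in R 4.3.3. Log2 ratios were taken after adding 0.5 reads in proportion to library size. Genes were compared from a mean of 50 counts upward, and 2-fold is the limit of a call. Intervals are exact conditional (Clopper-Pearson) 95% intervals. Because no molecular identifiers mark PCR copies, reads are not independent molecules, and intervals cover counting error only. The code was tested on simulated counts.

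The genes and lists were chosen with earlier results of these data known, so no list is independent evidence. Named genes are all 34 ER genes and, of each other pathway list, at most the 3 lowest and 3 highest past 2-fold. Cell type markers, overlapping genes and genes marked in the text as named after their values were seen stand outside this rule. Not every gene taken by this rule is reported here. Alternatives were DESeq2 1.42.0 size factors, total counts, other filters and limits, 5 added reads, removal of a lowess GC trend, and genes with at least 4 exons. The level of Rcrin was not analysed here.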

Additional observations from a re-analysis of the deposited data

How the results depend on the processing

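The count of 8 ER genes lower and 1 higher past 2-fold was unchanged with DESeq2 size factors, with total counts, with no filter and with 5 reads added. Over all genes, 18.6% stood lower and 17.6% higher with no filter, and 8.36% to 9.49% lower and 7.62% to 8.31% higher under the others. The ER count was 7 and 1 with a mean of at least 500 counts, with at least 4 exons, with the GC trend removed and with the whole interval beyond 2-fold. Over all genes, 6.18% to 8.16% stood lower and 5.93% to 7.52% higher at these settings. A limit of 1.5-fold gave 14 of 34 lower and 2 higher, where 18.8% of all genes stood lower and 19.0% higher. A limit of 4-fold gave 1 lower and 0 higher, beside 2.80% and 2.51% of all genes. The median ratio of -0.25 lay between -0.30 and -0.24 under the scaling, filter, added-read and exon alternatives, was -0.41 with the GC trend removed, and as a mean was -0.39; the cause of the GC shift was not tested. By the other ER lists, 4 genes in place of 7 stood higher at a mean of at least 500 counts, where fewer genes were compared, and their median of -0.0041 reversed to 0.024 with at least 4 exons. With the GC trend removed Derl2 reversed, from 0.19 to -0.0064. No ER gene crossed 2-fold or changed sign with DESeq2 size factors, total counts or 5 reads added. No paired analysis was possible because each genotype has 1 library, and no replicate could be left out. Depth limits little here, since 33 of 34 genes had a mean of at least 500 counts, while the unknown spread between mice limits every value.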
